A study of Homo sapiens with 12 samples.

Results

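The genes described are 4 kallikreins (KLK2, KLK3, KLK4 and KLK15), 4 membrane-anchored serine proteases (TMPRSS2, ST14, HPN and PRSS8) and 2 inhibitors of such proteases (SPINT1 and SPINT2). All probe sets to which the array's annotation gives 1 of these 10 symbols were taken, which made 28 of 54675 probe sets. A probe set was tested when its log2 signal lay above 4 on at least 3 of 12 arrays, and 20 of the 28 passed, from 9 of the 10 genes. No KLK15 probe set passed. All arrays held RNA of LNCaP, a prostate adenocarcinoma line that responds to androgen, so 1 line stands for the disease. The 4 groups were SRF siRNA with 5 nM R1881, control siRNA with 5 nM R1881, SRF siRNA with ethanol vehicle and control siRNA with ethanol vehicle, with 3 arrays each. R1881 is a synthetic androgen, and SRF is serum response factor, a transcription factor that binds DNA at CArG boxes. All groups shared 48 h of androgen deprivation and a transfection 42 h ahead of treatment, and R1881 or vehicle was present for 48 h. The labels call the arrays of a group biological replicates without saying that they were separate cultures, so the p-values reflect only how far these arrays vary.

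Kallikreins are secreted serine proteases encoded side by side on chromosome 19. In the prostate, luminal epithelial cells release KLK2 and KLK3 (prostate-specific antigen) into seminal fluid, where they help to liquefy the clot, and both genes are known to respond to androgen through elements near their starts. The membrane-anchored members are made as inactive precursors at the cell surface and cut surface or matrix proteins once activated. SPINT1 and SPINT2 are transmembrane Kunitz inhibitors that block matriptase (the product of ST14), hepsin (HPN) and prostasin (PRSS8).

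Promoter windows, the 250 bases ahead of an annotated gene start, were taken from RefSeq on GRCh38.p14 for the kallikreins whose probe sets were tested. They are shown because the KLK2 and KLK3 windows are alike and KLK4, which changed in the same directions on the arrays, has a window that is not. Capitals mark the best match to the androgen response element where it reached at least 9 of 12 fixed letters. The element was searched as AGAACA, any 3 letters and TGTTCT, a palindrome that reads the same on both strands. In the KLK4 window the best match had 7 of the letters and is not marked. The KLK3 window lies at chr19:50854665-50854914, the KLK2 window at chr19:50873189-50873438, both on the plus strand, and the KLK4 window at chr19:50911396-50911645 on the minus strand.
KLK3: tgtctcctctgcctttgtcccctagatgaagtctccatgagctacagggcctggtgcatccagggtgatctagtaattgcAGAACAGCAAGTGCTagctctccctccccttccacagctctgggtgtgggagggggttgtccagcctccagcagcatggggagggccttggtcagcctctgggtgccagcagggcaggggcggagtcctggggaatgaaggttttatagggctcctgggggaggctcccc
KLK2: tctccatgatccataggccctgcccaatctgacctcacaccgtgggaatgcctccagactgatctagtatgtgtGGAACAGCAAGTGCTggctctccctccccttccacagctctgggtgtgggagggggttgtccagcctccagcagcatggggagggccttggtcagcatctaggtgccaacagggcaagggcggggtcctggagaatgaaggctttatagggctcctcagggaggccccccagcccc
KLK4: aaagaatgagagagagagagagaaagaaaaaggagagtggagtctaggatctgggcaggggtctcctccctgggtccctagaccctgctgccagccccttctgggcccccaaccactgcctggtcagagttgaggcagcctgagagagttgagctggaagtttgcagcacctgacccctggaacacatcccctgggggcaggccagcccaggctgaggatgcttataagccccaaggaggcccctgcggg
In KLK3 the element matched 10 of the 12 fixed letters, at positions -170 to -156 from the start, and in KLK2 it matched 9, at -176 to -162. The elements differ by A1G, with KLK3's base first and positions counted from the element's 5′ end. Windows with at least 10 matching letters made up 1.18% of all 35116, and those with at least 9 made up 9.17%. The lower limit was chosen after the KLK2 window had been seen. KLK2 and KLK3 shared 206 of 238 aligned bases (86.6%), with an identical run of 80 bases, against 129 of 197 (65.5%) for KLK3 and KLK4. The 6 letters AGAACA, searched on either strand and part of the longer element, were present in the KLK3 window and in 1 SPINT1 window, and in 12.4% of all windows. A CArG box stood in 1.16% of all windows and in none of the 9 windows found for 6 of the 10 genes. A match is a description of letters, not a binding site, and a window without one says nothing of the factor.

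SRF, the target of the siRNA, was checked first through probe set 202401_s_at. Its log2 signal was 4.89, 4.98 and 4.73 with SRF siRNA in R1881, against 6.50, 6.25 and 6.16 with control siRNA in R1881. In vehicle it was 4.56, 5.06 and 4.58 with SRF siRNA, against 5.91, 6.14 and 6.17 with control siRNA. The silenced arrays kept 36.9% of the control signal in R1881 (limma adjusted p = 6.91e-06) and 39.5% in vehicle (adjusted p = 1.54e-05), while a second SRF probe set stayed between 2.56 and 2.87 on all arrays. Array medians ran from 2.97 to 3.06, and 37.3% to 38.0% of probe sets lay above 4. Correlations over the tested probe sets were 0.990 to 0.995 within groups and 0.885 to 0.961 between groups, and no array stood apart from its group by these correlations. The luminal markers KRT8, KRT18, HOXB13 and FOLH1 were above 4 and averaged 10.39 to 10.99 on the arrays, whereas none of 3 basal keratins passed 4. The luminal mean was 10.81 to 10.99 with SRF siRNA and 10.74 to 10.78 with control siRNA in R1881, against 10.59 to 10.67 and 10.39 to 10.61 in vehicle. Its genes moved in opposite directions. With control siRNA, R1881 changed KRT8 by 1.42 and KRT18 by 1.39, but HOXB13 by -1.15 and -1.09 at its probe sets and FOLH1 by -0.55. All of these passed. Of markers of other cell types, 2 of 5 fibroblast genes, 1 of 4 leukocyte genes and 1 of 3 endothelial genes passed 4 on any array. The mean log2 level of the fibroblast list, carried by COL1A1 and COL3A1, moved with R1881: it was 3.59 to 3.78 with SRF siRNA and 3.47 to 3.59 with control siRNA in R1881, against 4.39 to 4.43 with SRF siRNA and 4.10 to 4.22 with control siRNA in vehicle. The endothelial list, carried by VWF, stood at 3.39 to 3.54 and 3.37 to 3.61 in R1881, against 3.63 to 3.72 and 3.92 to 4.05 in vehicle, with SRF and control siRNA in that order. The leukocyte list, with only LYZ above 4, was at 2.67 to 2.95 with SRF siRNA in R1881 and at 2.44 to 2.52 in the other groups. The part of these lists in the results was not tested. The cultures were of the LNCaP line alone, so these lists describe RNA of that line and are not read as shares of other cell types. In RNA from a whole culture, fewer cells with a transcript and less of it per cell cannot be told apart. The 3′ minus 5′ difference of the GAPDH control probe sets, a measure of RNA or labelling quality, moved with the groups: it averaged 0.49 ± 0.14 with SRF siRNA and 0.46 ± 0.02 with control siRNA in R1881, against 0.36 ± 0.04 with SRF siRNA and 0.14 ± 0.09 with control siRNA in vehicle (SD, n = 3 each). In vehicle it was higher with SRF siRNA without overlap (0.32 to 0.39, against 0.07 to 0.24 with control siRNA), while R1881 and vehicle arrays overlapped under SRF siRNA. The same difference for ACTB averaged 1.81 ± 0.35 with SRF siRNA and 1.5 ± 0.02 with control siRNA in R1881, and 1.69 ± 0.14 with SRF siRNA and 1.37 ± 0.12 with control siRNA in vehicle (SD, n = 3 each). Replicate 3 of SRF siRNA in R1881 had the highest values of all arrays in both. It was at 0.64 for GAPDH, against 0.37 and 0.45 in its group, and at 2.21 for ACTB, against 1.58 and 1.65.

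R1881 raised the signal of nearly every tested probe set of these genes, and the kallikreins and TMPRSS2 rose by far more than the other members. With SRF siRNA 19 of 20 were higher in R1881 than in vehicle and none lower, beside 20.8% higher and 26.7% lower among all 21526 probe sets tested. With control siRNA 18 were higher and none lower, beside 24.0% higher and 31.8% lower among all. By gene, 8 of the 9 tested had a higher probe set with SRF siRNA and 7 with control siRNA. SRF siRNA went the other way for most probe sets. In R1881 15 of the 20 were lower with SRF siRNA than with control siRNA and 1 was higher, beside 24.2% lower and 29.0% higher among all. In vehicle 14 were lower and 1 higher, beside 22.7% lower and 26.4% higher among all. By gene, 5 of the 9 tested had a lower probe set in R1881 and 6 in vehicle, and 1 had a higher one in either treatment. The R1881 effect itself differed between the siRNAs for 5 probe sets, 2 with the larger effect under SRF siRNA and 3 with the smaller, beside 9.79% and 8.84% among all. A call means a Benjamini-Hochberg adjusted p under 0.05 over all tested probe sets in limma. Since 4 of the 20 passed the filter through their R1881 arrays, having fewer than 3 vehicle arrays above 4, the R1881 counts are descriptions and not support. All 4 were also among the 15 lower with SRF siRNA in R1881, so the SRF siRNA counts and the counts of differences are descriptions as well. With the GAPDH 3′ minus 5′ value as a covariate, all R1881 calls of KLK2, KLK3, KLK4 and TMPRSS2 probe sets held, and 17 of the 20 passed with SRF siRNA and 16 with control siRNA. For SRF siRNA against control siRNA 15 were lower in R1881 and 13 in vehicle with that covariate. The comparisons share arrays, so their calls are not independent of each other.

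Of the 20 probe sets, 10 were of KLK2, KLK3 and KLK4 and 3 of TMPRSS2, so counts and medians over the 20 largely repeat these genes. The median log2 change of the 20 was 2.34 for R1881 with SRF siRNA and 2.65 with control siRNA, where all tested probe sets had medians of -0.06 and -0.07. For SRF siRNA against control siRNA it was -0.93 in R1881 and -0.73 in vehicle, where all had 0.04 and 0.03. By role, all 10 kallikrein probe sets were higher in R1881 under either siRNA, and 10 in R1881 and 8 in vehicle were lower with SRF siRNA. At 2 of those 8, the KLK4 probe sets 1555697_at and 233854_x_at, every vehicle array lay under 4, so with values under 4 set to 4 no change was left to measure and 12 of the 20 were lower in vehicle. Of the 7 of membrane proteases, R1881 raised 7 with SRF siRNA and 6 with control siRNA, and with SRF siRNA 5 were lower in R1881 and 6 in vehicle. Of the 3 of Kunitz inhibitors, R1881 raised 2 under either siRNA, and SRF siRNA was followed by a higher signal of 1 and a lower signal of none.

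**Figure D1:**
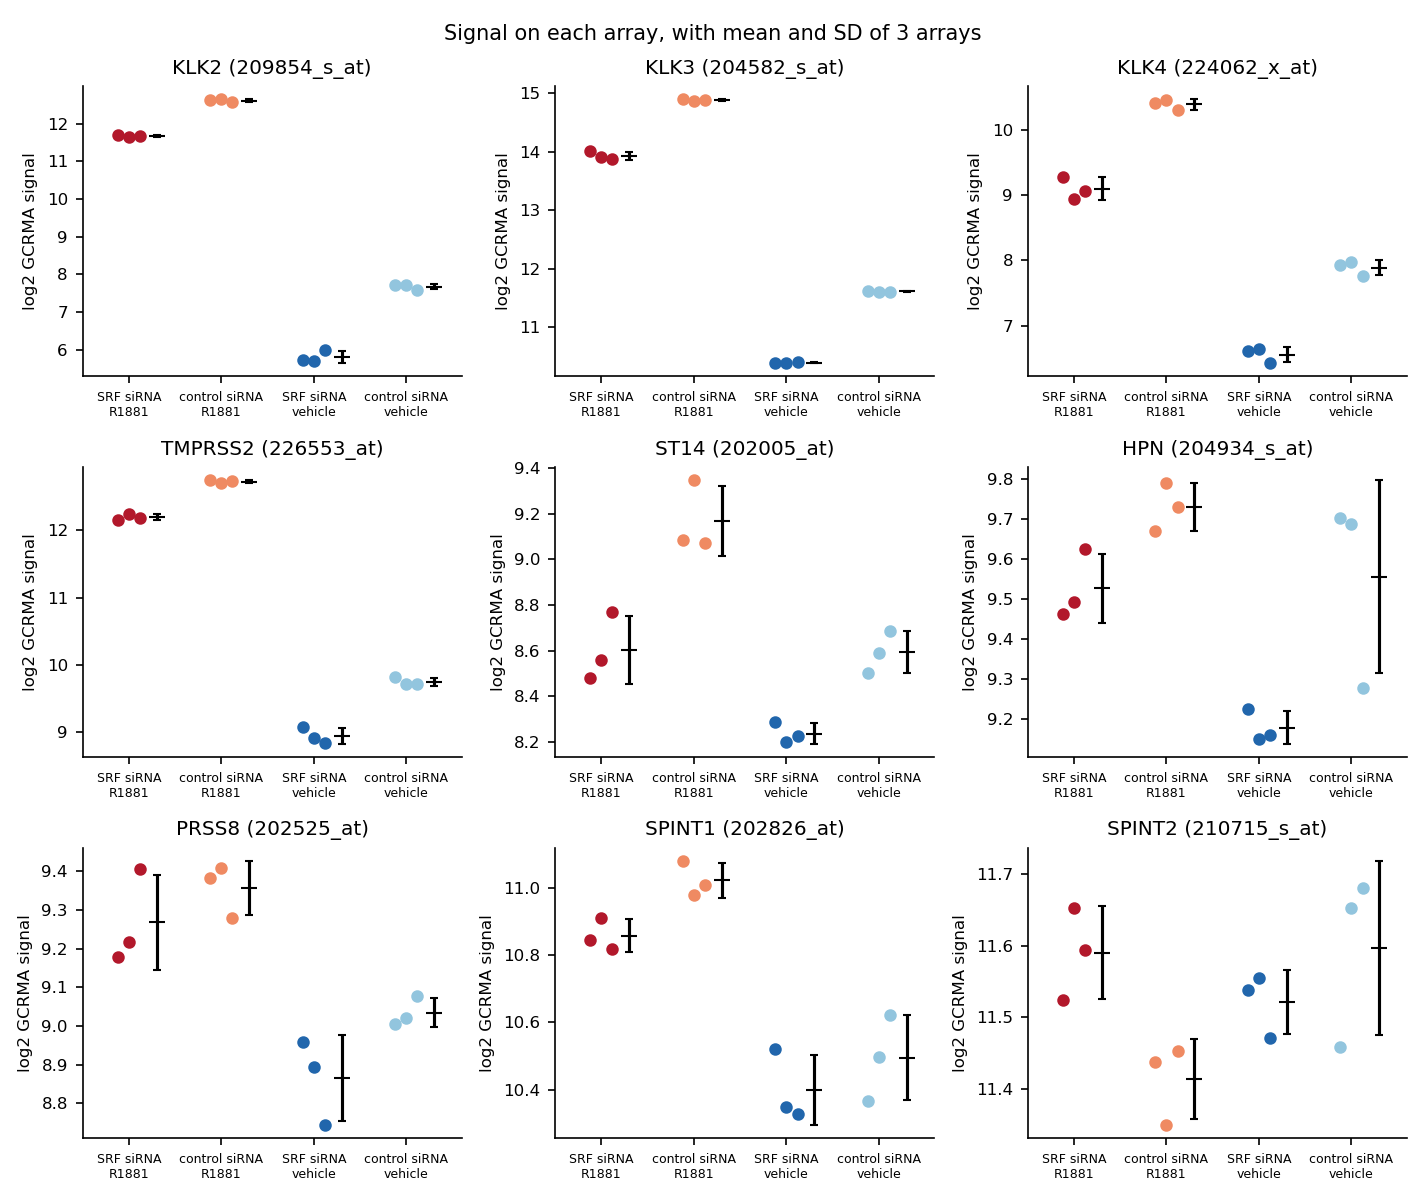
Log2 signal of the brightest tested probe set of each member gene (y axis) on each of the 12 arrays (points), grouped along the x axis in the order SRF siRNA with R1881, control siRNA with R1881, SRF siRNA with vehicle and control siRNA with vehicle; black bars to the right of the points mark the mean and SD of 3 arrays, and each panel has its own y range. KLK2 spans the widest range, 5.69 to 12.65, and SPINT2 a narrow one, 11.35 to 11.68.

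KLK2 encodes human glandular kallikrein, a trypsin-like protease that can activate the KLK3 precursor. Its probe set 209854_s_at gave 11.69, 11.64 and 11.68 with SRF siRNA in R1881 and 12.62, 12.65 and 12.57 with control siRNA in R1881. In vehicle the log2 signals were 5.73, 5.69 and 5.99 with SRF siRNA and 7.71, 7.73 and 7.59 with control siRNA. The 4 groups did not overlap, and the silenced vehicle arrays were lowest. R1881 raised it by 5.87 ± 0.09 on the log2 scale (SE) with SRF siRNA, a 58.4-fold change, and by 4.94 ± 0.09 (SE), a 30.6-fold change, with control siRNA (limma adjusted p = 4.1e-12 and 6.29e-12). The silenced cells kept 52.1% of the control signal in R1881 and 27.3% in vehicle, log2 changes of -0.94 ± 0.09 and -1.87 ± 0.09 (SE; adjusted p = 3.52e-06 and 2.86e-08). The R1881 effect was thus larger by 0.93 ± 0.12 (SE) under SRF siRNA, with a 95% interval of 0.66 to 1.20 (adjusted p = 0.000356). That call held when any 1 of the 12 arrays was left out, with an adjusted p of at most 0.00151.

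A second bright KLK2 probe set, 210339_s_at, gave the same order of groups without overlap. It had 11.04, 10.90 and 10.62 with SRF siRNA and 11.83, 11.93 and 11.79 with control siRNA in R1881, against 5.21, 5.32 and 5.24 with SRF siRNA and 7.48, 6.95 and 7.34 with control siRNA in vehicle. Its R1881 effects were 5.59 with SRF siRNA and 4.59 with control siRNA on the log2 scale, a difference of 1.00 ± 0.19 (SE, limma adjusted p = 0.00395). SRF siRNA left 50.1% of the control signal in R1881 and 25.0% in vehicle.

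The dimmer KLK2 probe set 209855_s_at differed in the opposite direction. It stood at 6.37, 5.93 and 5.81 with SRF siRNA and 8.06, 7.87 and 8.07 with control siRNA in R1881. In vehicle it was near the low end of the scale in both groups, at 4.07, 3.12 and 2.78 with SRF siRNA and 3.95, 3.54 and 4.14 with control siRNA, and these groups overlapped. Its R1881 effect was 2.72 with SRF siRNA and 4.12 with control siRNA, a difference of -1.41 ± 0.40 on the log2 scale (SE, limma adjusted p = 0.029). The call was lost, at adjusted p values of 0.0601 to 0.0685, without replicate 2 or 3 of SRF siRNA in R1881, replicate 1 or 3 of control siRNA in R1881, or replicate 2 of control siRNA in vehicle. SRF siRNA changed it by -1.96 in R1881 (adjusted p = 0.000107), and by -0.56 in vehicle (adjusted p = 0.12). Without replicate 1 of SRF siRNA in vehicle, that vehicle change was -0.93 (adjusted p = 0.00344). The last KLK2 probe set, 1555545_at, lay between 2.09 and 2.12 and was not tested.

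KLK3 encodes prostate-specific antigen, a chymotrypsin-like protease that cleaves semenogelins. Probe set 204582_s_at read 14.01, 13.91 and 13.88 with SRF siRNA in R1881 and 14.89, 14.86 and 14.89 with control siRNA in R1881. It read 10.39, 10.40 and 10.40 with SRF siRNA in vehicle, and 11.63, 11.61 and 11.61 with control siRNA in vehicle. No groups overlapped, and arrays of a group lay close together. Its rise in R1881 was 3.54 ± 0.06 (SE) with SRF siRNA, an 11.6-fold change, and 3.26 ± 0.06 (SE) with control siRNA, a 9.61-fold change. The silenced cells kept 51.9% of the control signal in R1881 and 43.0% in vehicle, log2 changes of -0.95 ± 0.06 and -1.22 ± 0.06 (SE; limma adjusted p = 3.6e-07 and 6.94e-08). The R1881 effects differed by 0.27 ± 0.09 (SE), with a 95% interval of 0.07 to 0.47, which did not pass at an adjusted p of 0.0599. It passed under 5 of 23 alternative settings, quantile normalization among them (0.33, adjusted p = 0.0248).

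The other bright KLK3 probe set, 204583_x_at, lay at 13.69, 13.60 and 13.45 with SRF siRNA and 14.59, 14.46 and 14.52 with control siRNA in R1881. Its R1881 effects were 3.38 and 3.08 with SRF and control siRNA, and the silenced signal was 52.2% of control in R1881 and 42.6% in vehicle. The difference of effects was 0.29 (adjusted p = 0.121). The dim probe set 231629_x_at had 5.80, 5.63 and 5.49 with SRF siRNA and 6.81, 6.68 and 6.64 with control siRNA in R1881, against 3.16, 3.79 and 3.79 with SRF siRNA and 3.93, 3.81 and 4.0 with control siRNA in vehicle. Its groups were in the same order without overlap, but the vehicle arrays lay at or under the filter's level. The R1881 effects were 2.06 with SRF siRNA and 2.80 with control siRNA, a difference of -0.74 ± 0.22 (SE, limma adjusted p = 0.0352). That call was lost when any 1 of 9 arrays was left out, with adjusted p values of 0.0537 to 0.0815. It held only without replicate 1 of SRF siRNA in R1881, replicate 1 of SRF siRNA in vehicle or replicate 3 of control siRNA in vehicle. KLK2 and KLK3 transcripts are alike, and probe sets whose names end in s_at or x_at can hold probes that match related transcripts, so how much of each signal came from the other gene was not tested.

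KLK4 encodes a trypsin-like kallikrein, known in tooth enamel for clearing matrix proteins and expressed in the prostate. Its probe set 224062_x_at measured 9.28, 8.93 and 9.07 with SRF siRNA in R1881 and 10.41, 10.45 and 10.30 with control siRNA in R1881. In vehicle it measured 6.61, 6.64 and 6.43 with SRF siRNA and 7.93, 7.97 and 7.77 with control siRNA. Once more the groups did not overlap. The rise in R1881 was 2.54 ± 0.10 (SE, 5.80-fold) with SRF siRNA and 2.50 ± 0.10 (SE, 5.64-fold) with control siRNA. SRF siRNA left 40.8% of the control signal in R1881 and 39.7% in vehicle, log2 changes of -1.29 ± 0.10 and -1.33 ± 0.10 (SE; limma adjusted p = 1.2e-06 and 1.27e-06). The R1881 effects differed by 0.04 ± 0.15 (SE), with a 95% interval of -0.28 to 0.36 (adjusted p = 0.885).

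A further bright KLK4 probe set, 1555737_a_at, rose in R1881 by 2.53 with SRF siRNA and 2.49 with control siRNA, and the silenced signal was 39.6% of control in R1881 and 38.5% in vehicle. Dimmer ones behaved less evenly. 1555697_at had R1881 effects of 2.16 and 2.84 with SRF and control siRNA, a difference of -0.68 (adjusted p = 0.118). Its change by SRF siRNA in vehicle, -0.97 (adjusted p = 0.00174), was -0.65 and did not pass with the GAPDH covariate (adjusted p = 0.0941). 233854_x_at had 4.0, 3.94 and 3.73 with SRF siRNA and 5.26, 5.21 and 5.27 with control siRNA in R1881, against 2.63, 2.20 and 2.83 with SRF siRNA and 3.19, 3.21 and 3.22 with control siRNA in vehicle. The groups did not overlap, though every vehicle array was under 4. It passed the filter only through control siRNA in R1881. Its R1881 effect there, its change by SRF siRNA in R1881 and its difference all draw on that group and are descriptions. Its R1881 effects were 1.34 with SRF siRNA and 2.04 with control siRNA, a difference of -0.70 ± 0.19 (SE, limma adjusted p = 0.0246). Leaving out replicate 3 of SRF siRNA in R1881, replicate 1 of SRF siRNA in vehicle, or replicate 1 or 3 of control siRNA in R1881 gave adjusted p values of 0.0513 to 0.0543. With all values under 4 set to 4, its R1881 effect with SRF siRNA was no longer measurable (adjusted p = 0.998). The KLK4 probe set 231782_s_at, between 2.76 and 3.54, was not tested.

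**Figure D2:**
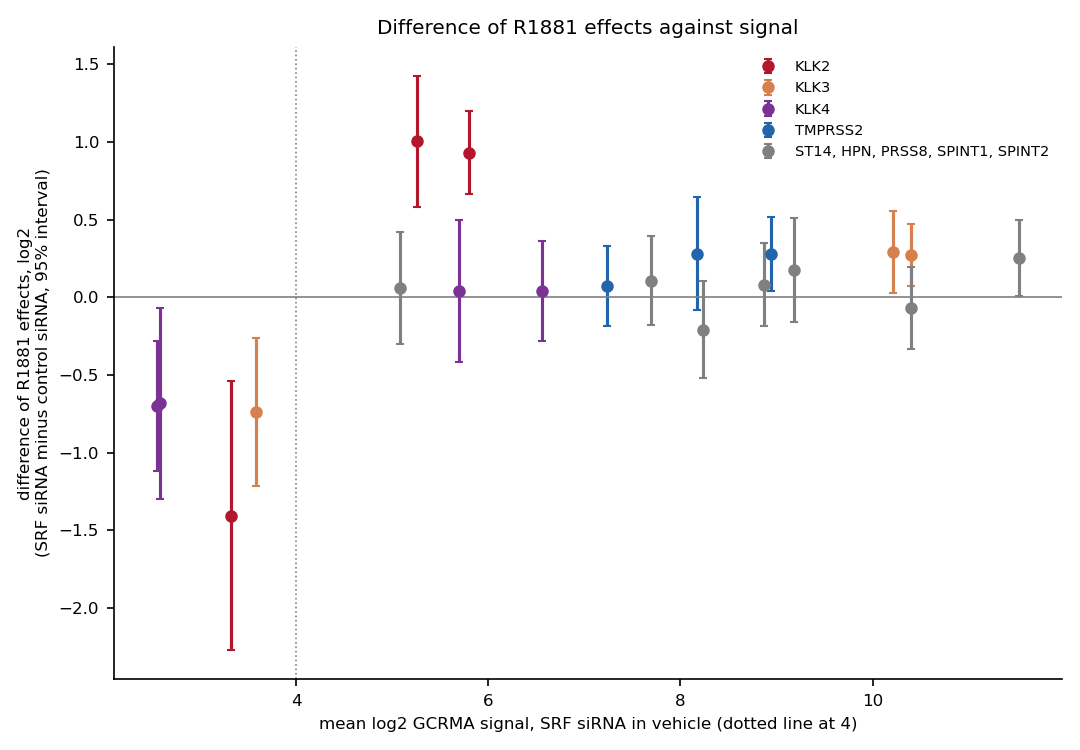
Difference between the R1881 effects, SRF siRNA minus control siRNA (y axis, log2), against the mean signal with SRF siRNA in vehicle (x axis, log2, dotted line at 4) for the 20 tested probe sets; points mark estimates, lines 95% intervals. KLK2 has differences of 0.93 and 1.00 at its bright probe sets and -1.41 at its dim one, and all 4 probe sets left of the dotted line have negative differences.

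The sign of the difference thus depended on the probe set. The 4 probe sets that passed the filter through their R1881 arrays (209855_s_at, 231629_x_at, 1555697_at and 233854_x_at) were also those with differences between -1.41 and -0.68, and the other 6 kallikrein probe sets had differences of 0.04 to 1.00. The part that the low end of the signal scale played in this was not tested. In the fit of all probe sets, with no filter on low signals, none of these 4 negative differences passed (adjusted p = 0.113 for 209855_s_at, 0.107 for 231629_x_at and 0.0724 for 233854_x_at), while 3 positive ones did, those of both bright KLK2 probe sets and of KLK3 at 204582_s_at (adjusted p = 0.0061). With values under 4 set to 4, all 4 negative ones were larger in size and passed. They were -1.94 for 209855_s_at, -1.07 for 231629_x_at, -1.65 for 1555697_at and -1.24 for 233854_x_at, with vehicle arrays then at or near 4. Their sizes are fixed by that floor. At 231629_x_at and 1555697_at they equal the changes by SRF siRNA in R1881, -1.07 and -1.65, so they say nothing further of the R1881 effect.

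KLK15, which encodes a kallikrein reported to activate the KLK3 precursor, had 4 probe sets and none passed the filter, so it was read only in a fit of all probe sets. 233477_at had 3.09, 3.09 and 3.08 with SRF siRNA and 4.01, 3.74 and 3.80 with control siRNA in R1881, against 3.03, 3.06 and 3.09 with SRF siRNA and 3.07, 3.05 and 3.04 with control siRNA in vehicle. The control R1881 arrays alone stood above the rest. In that fit its R1881 effect was 0.03 ± 0.06 (SE, limma adjusted p = 0.852) with SRF siRNA and 0.79 ± 0.06 (SE, adjusted p = 5.6e-06) with control siRNA, a difference of -0.77 ± 0.08 (SE, adjusted p = 0.000566). A second, 221462_x_at, had 2.22, 2.20 and 2.16 with SRF siRNA in R1881 and 2.29, 2.98 and 3.08 with control siRNA in R1881, with an R1881 effect of 0.64 under control siRNA (adjusted p = 0.0203). The remaining KLK15 probe sets showed no such pattern: 234495_at reached its highest value, 4.50, on 1 array of SRF siRNA in R1881 and lay at 3.21 to 3.86 on the others, and 234966_at stayed between 2.18 and 2.25. All of these signals are close to background, so sizes of change are uncertain.

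**Figure D3:**
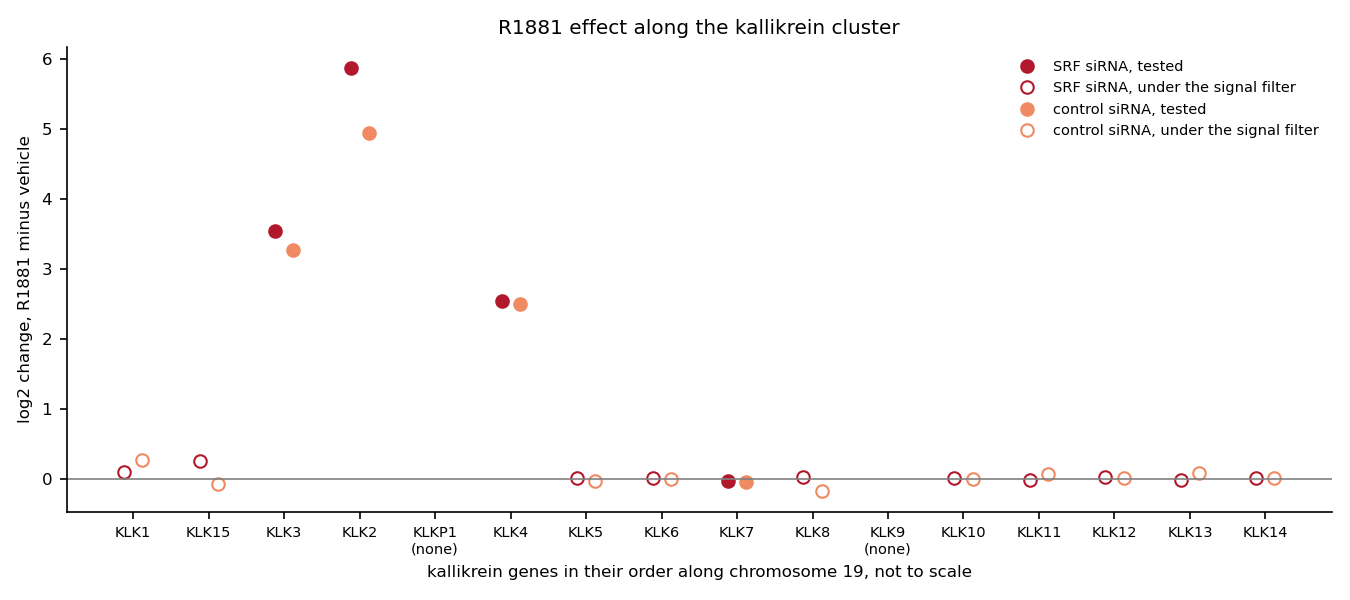
R1881 effect on the log2 scale (y axis) with SRF siRNA and with control siRNA for 1 probe set of each kallikrein gene, that with the highest mean signal, in the order of the genes along chromosome 19 (x axis); filled points passed the filter on low signals and open points did not. KLK3, KLK2 and KLK4 show effects above 2.49. The other genes plotted lie between -0.17 and 0.27, with no array above 4.50, where changes are hard to detect. KLK15 is plotted through 234495_at, while its dim probe set 233477_at changed by 0.79 with control siRNA. KLKP1 and KLK9 have no point.

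In the RefSeq order along chromosome 19, KLK15 is followed by KLK3, KLK2, the pseudogene KLKP1 and KLK4, with KLK1 before them and KLK5 to KLK14 after. The list of other kallikreins held 12 genes, of which 10 had 17 probe sets. Only KLK7, a chymotrypsin-like kallikrein of the skin, passed the filter, through 239381_at, and it was not called in any comparison, with R1881 effects of -0.03 with SRF siRNA and -0.04 with control siRNA. Its signal was 3.98 to 4.15 over the arrays, at the filter's level, so the lack of a call says little of its response. The untested probe sets of the other 9 genes stayed at or under 3.55, so changes in them were not detectable. KLKP1 and KLK9 had no probe set with a single symbol.

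TMPRSS2 encodes a membrane-anchored protease whose promoter is androgen-responsive and is fused to ERG in many prostate cancers. Probe set 226553_at was at 12.15, 12.24 and 12.18 with SRF siRNA in R1881 and 12.74, 12.70 and 12.72 with control siRNA in R1881. In vehicle it was at 9.08, 8.92 and 8.84 with SRF siRNA and 9.82, 9.72 and 9.72 with control siRNA. The groups were in the order seen in the kallikreins and did not overlap. R1881 raised it by 3.25 ± 0.08 (SE, 9.48-fold) with SRF siRNA and by 2.97 ± 0.08 (SE, 7.83-fold) with control siRNA (limma adjusted p = 6.16e-11 and 8.73e-11). The silenced signal was 69.3% of control in R1881 and 57.2% in vehicle, changes of -0.53 ± 0.08 and -0.80 ± 0.08 (SE; adjusted p = 0.00012 and 5.83e-06). The R1881 effects differed by 0.28 ± 0.11 (SE), with a 95% interval of 0.04 to 0.51 (adjusted p = 0.1). The difference passed under 3 of 23 alternative settings. It was 0.34 without replicate 1 of SRF siRNA in vehicle (adjusted p = 0.0396) and 0.35 after quantile normalization (adjusted p = 0.0367). With limma's trended and robust variance model it was 0.28 (adjusted p = 0.0386).

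Both other tested TMPRSS2 probe sets showed the same order of groups. 211689_s_at had R1881 effects of 3.40 with SRF siRNA and 3.12 with control siRNA, and the silenced signal was 53.0% of control in R1881 and 43.6% in vehicle. Its difference of effects was 0.28 (adjusted p = 0.278), and 0.44 (adjusted p = 0.0174) without replicate 3 of SRF siRNA in R1881. That array read 11.25, against 11.72 and 11.74 in its group, and had the highest 3′ minus 5′ differences. The part of RNA quality in this was not tested. 205102_at had R1881 effects of 2.87 with SRF siRNA and 2.80 with control siRNA, with 57.1% of the control signal in R1881 and 54.4% in vehicle. The dim 1570433_at did not pass the filter and lay at 4.56, 3.87 and 3.19 with SRF siRNA and 4.56, 3.91 and 3.55 with control siRNA in R1881, with all vehicle arrays between 1.88 and 2.70.

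**Figure D4:**
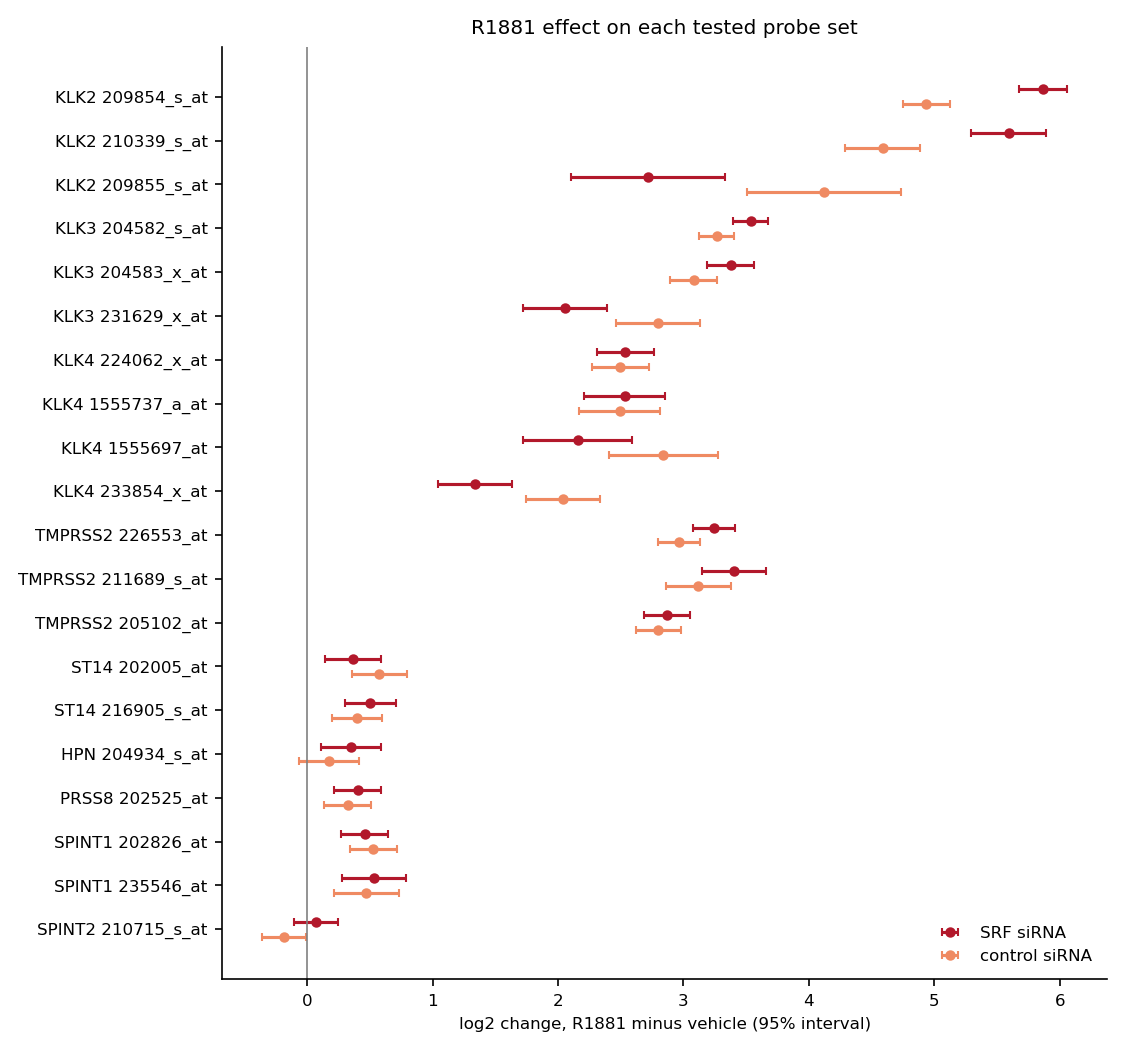
Log2 change in R1881 against vehicle (x axis) for the 20 tested probe sets (rows), with SRF siRNA and with control siRNA; points mark estimates and lines 95% intervals. All KLK2, KLK3, KLK4 and TMPRSS2 probe sets lie at 1.34 or higher, and the other genes between -0.18 and 0.57.

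ST14 encodes matriptase, an epithelial surface protease that activates prostasin and the precursor of hepatocyte growth factor. 202005_at read 8.48, 8.56 and 8.77 with SRF siRNA and 9.09, 9.35 and 9.07 with control siRNA in R1881, against 8.29, 8.20 and 8.22 with SRF siRNA and 8.50, 8.59 and 8.69 with control siRNA in vehicle. Silenced and control arrays did not overlap in either treatment, but the silenced R1881 arrays and the control vehicle arrays did. In R1881 it was higher by 0.37 ± 0.10 (SE, limma adjusted p = 0.0106) with SRF siRNA and by 0.57 ± 0.10 (SE, adjusted p = 0.000446) with control siRNA. SRF siRNA left 67.6% of the control signal in R1881 and 78.1% in vehicle (adjusted p = 0.000562 and 0.0118). The difference between the R1881 effects was -0.21, with a 95% interval of -0.52 to 0.10 (adjusted p = 0.352). With the GAPDH 3′ minus 5′ value as a covariate, the R1881 effects were 0.28 with SRF siRNA and 0.35 with control siRNA and neither passed (adjusted p = 0.0732 and 0.159).

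A second ST14 probe set, 216905_s_at, was raised by R1881 by 0.50 with SRF siRNA and 0.40 with control siRNA, and SRF siRNA left 75.3% of its control signal in R1881 and 69.9% in vehicle. All 4 of these changes passed. The other one, 216906_at, lay between 2.57 and 2.68 and was not tested.

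HPN encodes hepsin, a protease found at high levels in prostate tumours. Its single probe set 204934_s_at had 9.46, 9.49 and 9.62 with SRF siRNA and 9.67, 9.79 and 9.73 with control siRNA in R1881, against 9.23, 9.15 and 9.16 with SRF siRNA and 9.70, 9.69 and 9.28 with control siRNA in vehicle. Replicate 3 of control siRNA in vehicle lay well under the other arrays of its group. The R1881 effect was 0.35 ± 0.11 (SE, limma adjusted p = 0.02) with SRF siRNA, and 0.17 with a 95% interval of -0.06 to 0.41 (adjusted p = 0.195) with control siRNA. The difference of 0.17 between them did not pass (95% interval -0.16 to 0.51, adjusted p = 0.481). SRF siRNA left 77.0% of the control signal in vehicle (log2 change -0.38 ± 0.11, SE, adjusted p = 0.0129), and the change in R1881 was -0.20 (adjusted p = 0.139).

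Both HPN calls were lost without single arrays. The vehicle change was -0.30 (adjusted p = 0.0538) without replicate 1 of control siRNA in vehicle and -0.31 (adjusted p = 0.0542) without replicate 2. The R1881 effect with SRF siRNA lost its call without replicate 2 or 3 of SRF siRNA in vehicle (adjusted p = 0.0577 and 0.0522) or replicate 3 of SRF siRNA in R1881 (0.0672), and with the GAPDH covariate (0.109). Without replicate 3 of control siRNA in vehicle, the change by SRF siRNA in R1881 passed at -0.20 (adjusted p = 0.0359).

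PRSS8 encodes prostasin, a membrane-anchored protease known for activating the epithelial sodium channel. 202525_at had 9.18, 9.22 and 9.41 with SRF siRNA and 9.38, 9.41 and 9.28 with control siRNA in R1881, against 8.96, 8.89 and 8.74 with SRF siRNA and 9.01, 9.02 and 9.08 with control siRNA in vehicle. The R1881 arrays stood above the vehicle arrays, and the siRNA groups overlapped in R1881. Relative to vehicle, R1881 raised it by 0.40 ± 0.09 (SE, limma adjusted p = 0.00233) with SRF siRNA and 0.32 ± 0.09 (SE, adjusted p = 0.00718) with control siRNA. The call with control siRNA was lost with the GAPDH covariate, at 0.19 (adjusted p = 0.408). For SRF siRNA the change was -0.09 in R1881, with a 95% interval of -0.28 to 0.10, and -0.17 in vehicle, with an interval of -0.36 to 0.02 (adjusted p = 0.41 and 0.124).

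**Figure D5:**
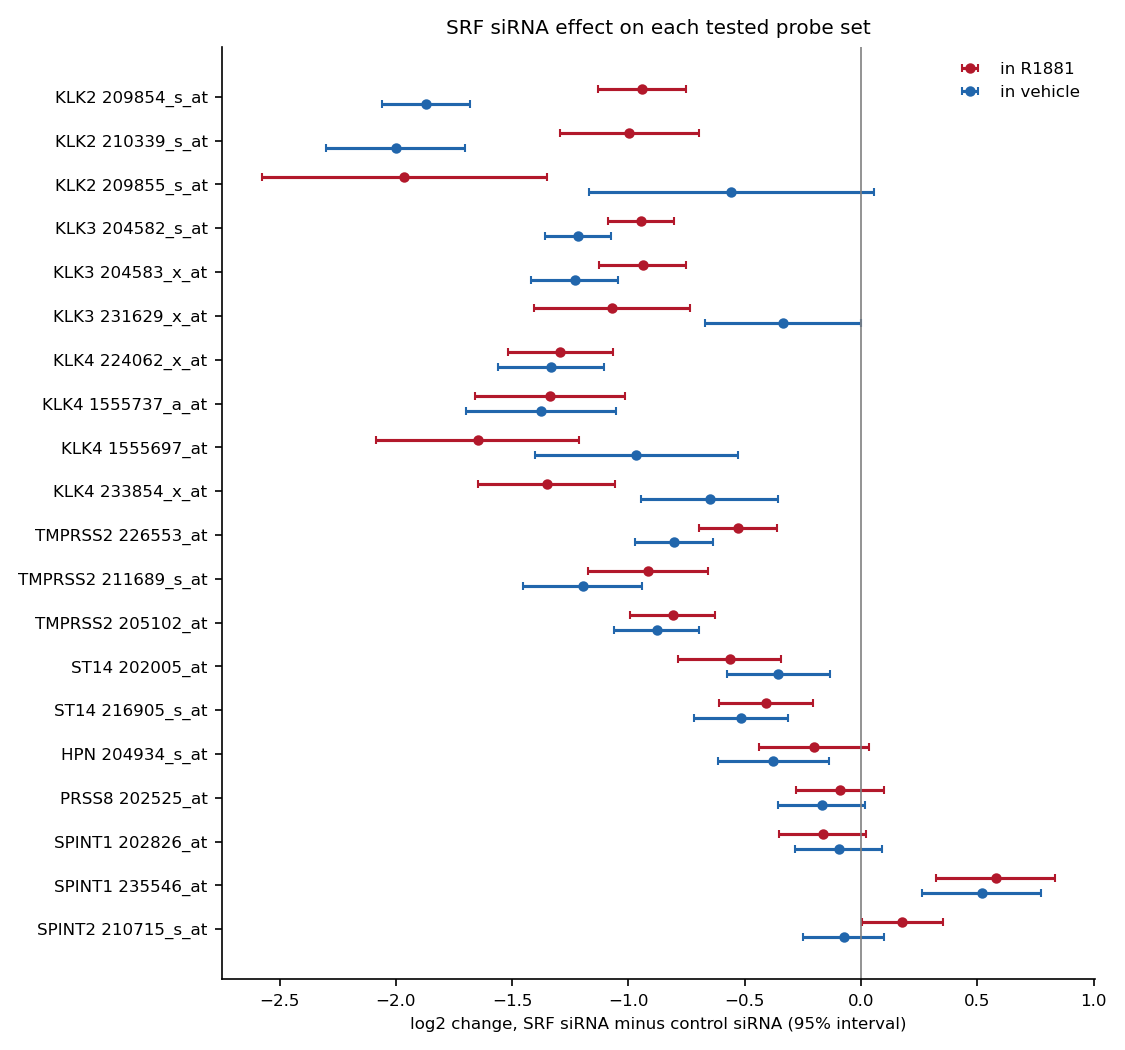
Log2 change with SRF siRNA against control siRNA (x axis) for the 20 tested probe sets (rows), in R1881 and in vehicle; points mark estimates and lines 95% intervals. The kallikrein and TMPRSS2 probe sets lie to the left of 0, from -2.0 to -0.33, and SPINT1 235546_at lies to the right at 0.58 and 0.52.

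SPINT1 encodes HAI-1, the main inhibitor of matriptase. Its bright probe set 202826_at gave 10.85, 10.91 and 10.82 with SRF siRNA and 11.08, 10.98 and 11.01 with control siRNA in R1881, against 10.52, 10.35 and 10.33 with SRF siRNA and 10.37, 10.50 and 10.62 with control siRNA in vehicle. The vehicle groups overlapped, and all R1881 arrays were above all vehicle arrays. It rose in R1881 by 0.46 ± 0.09 (SE, limma adjusted p = 0.000903) with SRF siRNA and by 0.53 ± 0.09 (SE, adjusted p = 0.000241) with control siRNA. SRF siRNA changed it by -0.16 in R1881 and -0.10 in vehicle, and neither passed (adjusted p = 0.127 and 0.379).

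The dimmer SPINT1 probe set 235546_at disagreed with it on the siRNA. It had 5.75, 5.55 and 5.56 with SRF siRNA and 4.98, 5.08 and 5.07 with control siRNA in R1881, and 5.03, 5.09 and 5.15 with SRF siRNA and 4.84, 4.32 and 4.54 with control siRNA in vehicle. Silenced arrays were higher without overlap in both treatments, by 0.58 ± 0.12 in R1881 and 0.52 ± 0.12 in vehicle (SE; limma adjusted p = 0.00131 and 0.00315). R1881 raised it by 0.53 with SRF siRNA and 0.47 with control siRNA (adjusted p = 0.00273 and 0.00456).

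SPINT2 encodes HAI-2, an inhibitor of matriptase, hepsin and prostasin. 210715_s_at had 11.52, 11.65 and 11.59 with SRF siRNA and 11.44, 11.35 and 11.45 with control siRNA in R1881, against 11.54, 11.55 and 11.47 with SRF siRNA and 11.46, 11.65 and 11.68 with control siRNA in vehicle. The control siRNA R1881 arrays lay just under all others, and the other groups overlapped. The R1881 effect was 0.07 with SRF siRNA (95% interval -0.10 to 0.24, limma adjusted p = 0.505) and -0.18 with control siRNA (95% interval -0.36 to -0.01, adjusted p = 0.0691). The second passed under quantile normalization at -0.28 (adjusted p = 0.005) and without replicate 1 of control siRNA in vehicle at -0.25 (adjusted p = 0.0187). It also passed with limma's trended and robust variance model (adjusted p = 0.0253). The difference of effects was 0.25, with a 95% interval of 0.01 to 0.50 (adjusted p = 0.148), and passed only under quantile normalization (0.35, adjusted p = 0.03). SRF siRNA changed it by 0.18 in R1881 and -0.08 in vehicle (adjusted p = 0.0813 and 0.46). The change in R1881 was 0.28 and passed under quantile normalization (adjusted p = 0.00547), and it passed at 0.18 with the trended and robust model (adjusted p = 0.0317).

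The order of the 4 groups was shared by the kallikreins and TMPRSS2. In 12 of 20 probe sets, control siRNA in R1881 was highest, followed by SRF siRNA in R1881, control siRNA in vehicle and SRF siRNA in vehicle, with no overlap between neighbours. Those 12 were 9 of the 10 KLK2, KLK3 and KLK4 probe sets and all 3 of TMPRSS2, so they came from 4 of the 9 tested genes, and none came from ST14, HPN, PRSS8, SPINT1 or SPINT2. Among all tested probe sets 419 (1.95%) had that order. The order was chosen with the values of these members known, so the shares given here describe it and are no test of it. Since 3 of the 12 (231629_x_at, 1555697_at and 233854_x_at) had no vehicle array above 4 and passed the filter only through R1881 arrays, the order was also counted among probe sets with at least 3 vehicle arrays above 4. There it held in 9 of 16, beside 395 of all 20793 (1.9%). The order of the group means alone was the same in 16 of 20, beside 1744 of all tested (8.1%).

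Other genes of these pathways showed mixed changes. Of 18 further membrane-anchored serine proteases, 14 had probe sets and 1 was bright enough to test. That was TMPRSS11E, a protease of squamous epithelium, with 4.69, 4.84 and 4.70 with SRF siRNA and 6.18, 6.01 and 6.29 with control siRNA in R1881, against 4.55, 4.39 and 4.37 with SRF siRNA and 4.76, 4.69 and 4.67 with control siRNA in vehicle. The control R1881 arrays stood above all others. Its R1881 effect was 0.30 with SRF siRNA (limma adjusted p = 0.0155) and 1.45 with control siRNA (adjusted p = 8.64e-08), and the difference of -1.15 passed (adjusted p = 0.000111). Of 12 other protease inhibitors, 9 had probe sets and 1 was tested. That was SERPINA3, the antichymotrypsin that binds KLK3, with 5.89, 6.50 and 6.53 with SRF siRNA in R1881, 2.61, 3.10 and 3.59 with control siRNA in R1881, and 1.89 to 1.99 on all vehicle arrays. R1881 raised it by 4.38 with SRF siRNA and 1.16 with control siRNA, a difference of 3.21. All arrays but those of SRF siRNA in R1881 lay under 4, so the probe set passed the filter through that group alone and the sizes are uncertain.

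Of 24 substrates and receptors of these proteases, 21 had probe sets and 16 probe sets of 7 genes were tested. R1881 raised 4 and lowered 6 of the 16 with SRF siRNA (20.8% and 26.7% of all tested), and raised 4 and lowered 8 with control siRNA (24.0% and 31.8%). With SRF siRNA 7 were higher and 4 lower in R1881 (29.0% and 24.2% of all), and 4 higher and 7 lower in vehicle (26.4% and 22.7%). The difference of R1881 effects passed upward for 5 (9.79% of all), of which 4 were probe sets of FN1 and 1 of SCNN1G, and downward for 3 (8.84%). Since 6 of the 16 probe sets were of FN1, these counts largely describe a few genes. IGFBP3, a binding protein of insulin-like growth factors that KLK3 can cleave, averaged 9.39 with SRF siRNA and 10.64 with control siRNA in R1881, against 8.88 with SRF siRNA and 7.54 with control siRNA in vehicle, at 210095_s_at. Its R1881 effect was 0.51 with SRF siRNA and 3.10 with control siRNA (limma adjusted p = 0.000544 and 1.73e-10), and 212143_s_at gave 0.39 and 3.05. FN1, the matrix protein fibronectin, had the opposite sign: at 216442_x_at R1881 changed it by -1.13 with SRF siRNA and -2.92 with control siRNA, and the other bright FN1 probe sets (210495_x_at, 212464_s_at and 211719_x_at) lay close to these values. The dimmer FN1 probe sets 214701_s_at and 1558199_at had changes of -0.56 and -0.32 with SRF siRNA, which did not pass, and of -1.75 and -1.0 with control siRNA, which did, and their differences did not pass (adjusted p = 0.0823 and 0.127).

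CDCP1, a surface protein cut by matriptase, was raised by R1881 at 218451_at by 0.46 with SRF siRNA and 0.42 with control siRNA and was lower with SRF siRNA by 0.37 in R1881 and 0.42 in vehicle (log2 changes of -0.37 and -0.42), while 234932_s_at passed in no comparison. EPCAM, another matriptase substrate, was at 201839_s_at lower in R1881 by small amounts, with changes of -0.28 with SRF siRNA and -0.30 with control siRNA. Among sodium channel subunits, SCNN1G at 241436_at rose in R1881 by 1.57 with SRF siRNA, while its change with control siRNA was 0.07 (adjusted p = 0.815), and the difference of 1.5 passed (adjusted p = 0.00791). Its SRF siRNA R1881 arrays were at 5.60, 4.59 and 5.78 and all 9 others at 3.72 to 3.99, so it passed the filter through that group alone, and its changes are from near background. SCNN1A rose at 203453_at by 0.32 with control siRNA and changed by -0.04 with SRF siRNA (adjusted p = 0.00407 and 0.699), a difference of -0.36 (adjusted p = 0.0407). Its probe sets 217264_s_at and 215026_x_at gave differences that did not pass. F2R, the thrombin receptor, was higher with SRF siRNA at 203989_x_at by 1.44 in R1881 and 0.82 in vehicle (limma adjusted p = 0.00151 and 0.0386). R1881 changed it by -0.39 with SRF siRNA and -1.01 with control siRNA (adjusted p = 0.304 and 0.0119). The control siRNA R1881 arrays lay at 4.88, 5.11 and 3.56, so the 1.44 and the -1.01 rest in part on 1 low array.

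Profiles over the 12 arrays, each centred on its own mean, were compared among 10264 other genes by their root mean square difference on the log2 scale. The arrays form 4 groups, so the 12 points are not independent. Closest to KLK3 were ELL2, an elongation factor, at 0.15 (Pearson's r = 0.997), then TMPRSS2 at 0.26 and NDRG1 at 0.28. TMPRSS2 was closest to NDRG1 (0.16), ELL2 (0.20) and ELOVL7 (0.21). For KLK4 the nearest were the zinc transporter gene SLC39A10 (0.22), SLC45A3 (0.26) and PRKCH (0.28). The nearest to KLK2 lay farther off, with PTGER4, a prostaglandin E receptor gene, at 0.38, TNFAIP3 at 0.64 and STEAP4 at 0.72. This measure grows with the range of a profile, and KLK2 had the widest range of the members. Its Pearson's r was 0.997 with KLK3 and with TMPRSS2, at differences of 1.03 and 1.22, against 0.993 with PTGER4. The small profiles of the other members had neighbours at 0.06 to 0.10: BCL6, ZBTB8OS and MED10 for ST14, CCND3, LEPROT and NDUFS7 for HPN, MCOLN2, KLHL36 and ARAF for PRSS8, RAB1A, ZNF706 and RAB5A for SPINT1, and RTL8C, NRG1 and TMSB10 for SPINT2.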

How the data were processed

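RNA of LNCaP cells was measured on 12 Affymetrix arrays in 4 groups of 3, mapped from the labels. The authors' deposited table holds log2 signals per probe set and array, computed with GCRMA per the submitters' processing notes. The GCRMA version is not given in the sources used here. Input was 3.5 µg of RNA for each array, per the labels' protocols. Scanner files were not used.

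Gene symbols came from the platform annotation. Of 54675 probe sets, 62 controls were left out, and 21526 with a log2 value above 4 on at least 3 arrays were tested. GCRMA compresses dim signals toward values near 2 to 3, so changes against such levels are uncertain. One model with a mean for each group was fitted by limma 3.58.1 under R 4.3.3, using statmod 1.5.0, with Benjamini-Hochberg adjustment over all tested probe sets and a call at 0.05. Contrasts were R1881 against vehicle with each siRNA, their difference (SRF siRNA minus control siRNA), and SRF siRNA against control siRNA in each treatment. SE and 95% intervals are limma's moderated ones. Dim members were read from a fit of all probe sets.

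The members, the gene lists, the naming rule (all member probe sets, SRF, every list probe set that passed the filter, and the 3 nearest profiles of each member) and the tests were chosen with earlier results of these data known. Some marker genes are not reported here. Alternatives changed the filter, a floor, the probe sets used, normalization, variance model, arrays fitted, replicate block, RNA quality covariate or thresholds, or dropped 1 array at a time. Promoter windows were RefSeq's on GRCh38.p14, aligned with Biopython 1.88. Figures used matplotlib 3.10.9 in Python 3.11.15. The fit was tested on simulated data. The number of arrays limits the precision.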

Additional observations from a re-analysis of the deposited data

Results flagged for a closer look

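The R1881 effect differed between SRF siRNA and control siRNA, by the test of the difference itself, in 5 tested probe sets and, in the separate fit of all probe sets, in 1 of KLK15. Under SRF siRNA it was larger for KLK2 at 209854_s_at (0.93 on the log2 scale) and 210339_s_at (1.00). It was smaller for KLK2 at 209855_s_at (-1.41), KLK3 at 231629_x_at (-0.74) and KLK4 at 233854_x_at (-0.70), and, in the fit of all probe sets, for KLK15 at 233477_at (-0.77). In that fit the negative differences of KLK2, KLK3 and KLK4 did not pass (adjusted p = 0.113, 0.107 and 0.0724). With values under 4 set to 4 they were larger in size and passed (-1.94, -1.07 and -1.24), but that floor fixes their sizes. The bright KLK2 probe sets stayed above 5 on every array. At the probe sets with a negative difference at least 2 arrays of each vehicle group lay under 4, and the part of background in these values was not tested. KLK4 at 233854_x_at passed the filter only through control siRNA in R1881.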

How the results depend on the processing

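The number of probe sets called for the difference of R1881 effects depended most on the processing. It was 5 (2 higher, 3 lower under SRF siRNA), and became 3 with no filter on low values (3 higher, 0 lower), 2 with 1 probe set a gene, 8 after quantile normalization (5 higher, 3 lower), 2 at an adjusted p under 0.01, 2 when at least 2-fold was also asked, and 2 to 5 when single arrays were left out. With 1 probe set a gene the counts were 7 for R1881 with control siRNA, 8 with SRF siRNA, 5 for SRF siRNA in R1881 and 6 in vehicle, because 9 genes were then tested. With at least 2-fold asked, SRF siRNA gave 6 in R1881 and 7 in vehicle. Leaving out single arrays gave 18 to 19 for R1881 under either siRNA, and for SRF siRNA 16 to 17 in R1881 and 14 to 16 in vehicle.

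The next counts cover only the brightest tested probe set of each of the 9 genes. Of 1071 values over 45 results and 24 settings, 7 reversed, 28 lost their call and 15 gained one. Some losses came from the stricter thresholds alone, with the estimate unchanged. Dimmer probe sets are outside these counts. There the negative differences passed in 15 of 22 settings for 209855_s_at, 9 of 22 for 231629_x_at and 13 of 21 for 233854_x_at. The values that reversed, at the brightest probe sets, were not called before or after. They were the SPINT1 difference (0.0018 after quantile normalization), the HPN R1881 effect with control siRNA (-0.012 with the GAPDH covariate), and the KLK4 difference (-0.034 with the GAPDH covariate, and -0.053 to 0.12 without single arrays, 4 of which turned the sign). The cause was not tested. The deviations of same-numbered arrays had correlations of -0.18 to 0.19. Low correlations over so few arrays cannot show whether same-numbered arrays were handled together, and the labels do not say. With the replicate block the calls numbered 18 for R1881 with control siRNA, 19 with SRF siRNA, 4 for the difference, and 16 and 15 for SRF siRNA in R1881 and in vehicle. The difference could not be fitted on a subset of groups, since it needs all 4 groups. With values under 4 set to 4 the difference gave 6 calls (2 higher, 4 lower). The 4 lower ones passed at limma adjusted p values of 0.000149 or less. Their sizes are fixed by that floor, because the vehicle arrays then lie at or near 4. Over all probe sets, R1881 with control siRNA gave 7362 calls with the GAPDH covariate, against 12021 without, and SRF siRNA in vehicle gave 7304, against 10576.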
